A study of Mus musculus with 35 samples.

Results

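Liver gene expression was compared directly between mice exposed to 120 ppm and mice exposed to 40 ppm styrene, to see what the highest concentration added to, extended or turned back from the response at 40 ppm. The comparison used the 10 arrays whose titles give these concentrations, 5 for each, out of 35 in the series. The mice were adult males of the C57Bl/6 strain, wild type, with no allele or further agent, and all 10 had a single 6-hour exposure to styrene vapour in an individual wire-mesh cage. They were killed the following morning under sodium pentobarbital, and 1 biotin-labelled Affymetrix 3' array was run per liver. The other 25 arrays, from mice given air alone or 1, 5, 10 or 20 ppm, served to estimate the spread, and the 5 air mice are given as the background level.

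Styrene, the monomer of polystyrene, is oxidised by cytochromes P450 to styrene oxide, which is then hydrolysed by epoxide hydrolase or conjugated to glutathione. Hepatocytes also secrete most plasma proteins, and in the acute phase response cytokines such as interleukin-6 raise the transcripts of a set of them, among them orosomucoids, serum amyloids, haptoglobin and protease inhibitors. Interleukin-6 acts on these genes through STAT3, often together with C/EBP transcription factors that bind their promoters.

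Over the whole table the arrays correlated about as closely across the groups as within them. Pearson correlations over all probe sets lay between 0.9911 and 0.9949 within 40 ppm, between 0.9895 and 0.9937 within 120 ppm, and between 0.9887 and 0.9941 across the groups. The array median was 3.572 ± 0.0209 (SD, n = 5) at 40 ppm and 3.598 ± 0.0274 at 120 ppm (two-sided exact permutation p = 0.151, adjusted p = 0.453 over 3 measures). The gap from 3' to 5' probe sets, a reading of RNA integrity and labelling, had a mean of 0.706 at 40 ppm and 0.717 at 120 ppm for actin, and 0.110 and 0.120 for GAPDH (exact permutation, adjusted p = 0.786 for both). In air the mean was 0.478 for actin, below both groups, and 0.147 for GAPDH, above both. The part of these gaps in the comparisons with air was not tested. The 18 bacterial hybridisation controls, which read RNA added at the bench and no liver transcript, were all higher at 120 ppm, by 0.109 to 0.489 with a median of 0.37 on the log2 scale, and 12 of them passed in limma over the 104 control probe sets. All 12 measured hepatocyte markers had a mean over the 10 arrays at or above the 99.1 percentile of the probe sets. The numbers in the array titles run from 43 to 47 at 40 ppm and from 49 to 56 at 120 ppm, so whatever these numbers stand for cannot be told apart from concentration.

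Few transcripts differed between 120 and 40 ppm, and every call was higher at 120 ppm. Of 45037 probe sets, 11 passed an adjusted p under 0.05 in limma, which is 0.0244%, and none was lower. The 11 named 8 genes: Orm2 and Serpina3n, which encode acute phase plasma proteins, Serpina10, an inhibitor of blood coagulation, Prtn3, a neutrophil granule protease, Prg4, a secreted glycoprotein, Cyb561, a membrane cytochrome, Cpne8, a copine, and Ctsf, a lysosomal protease. 2 further probe sets have no gene name here. In all 11 the lowest of the 120 ppm mice lay above the highest of the 40 ppm mice, against 0.744% of all probe sets. The 11 were picked by these same values, so their separation is not independent evidence. Among the probe sets that were lower at 120 ppm, the smallest adjusted p was 0.0772.

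Of the calls 9, or 0.02% of probe sets, were at least 1.5-fold higher. At an unadjusted p under 0.05 in limma, 2513 probe sets (5.58%) differed, 1610 higher (3.57%) and 903 lower (2.01%). For comparison, 6586 probe sets (14.6%) passed for 40 ppm against air and 8727 (19.4%) for 120 ppm against air. The 95% interval of the difference lay inside 1.5-fold either way for 42332 probe sets, or 94%, with a median distance from estimate to bound of 0.23 on the log2 scale, which is 1.18-fold. With array medians of 3.572 and 3.598, many of these probe sets lie near the low end of the table, where changes can be understated. Over 2-fold differences were found for 16 probe sets higher and 10 lower at 120 ppm, passed or not. The median change over all probe sets was 0.01.

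**Figure D1:**
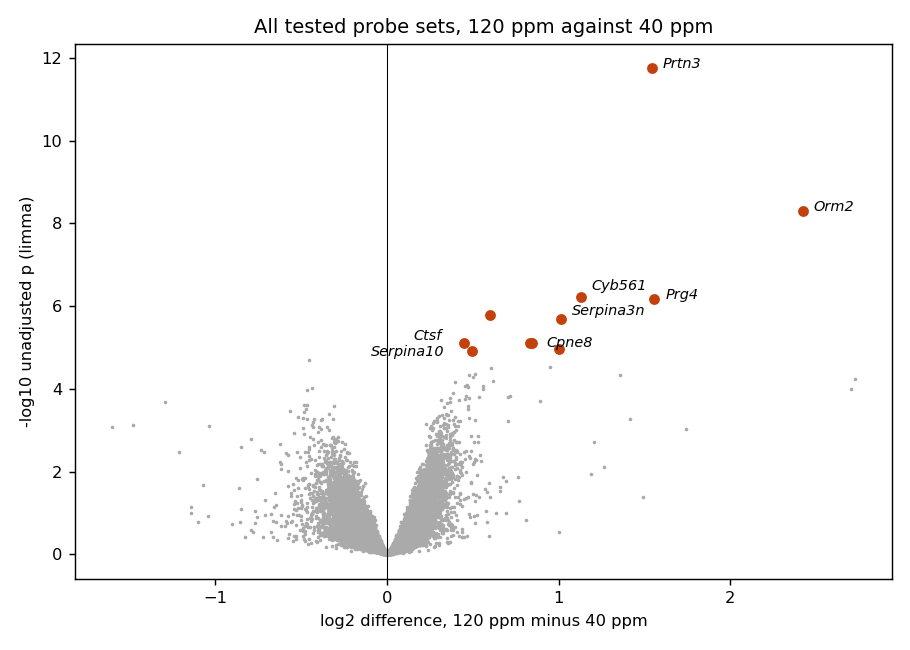
Each point is 1 of the 45037 probe sets, with the log2 difference of 120 ppm minus 40 ppm on the x axis and the unadjusted p of limma, as -log10, on the y axis. The 11 probe sets that passed are in orange, all to the right of 0, with Prtn3 and Orm2 far above the rest, and 2 of the orange points have no gene name.

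The number of calls moved with single mice. It was 5 without 40 ppm replicate 1, 4 without replicate 3, 4 without replicate 4 and 3 without replicate 5, and it was 7, 2 and 3 without 120 ppm replicates 1, 2 and 3. Without 120 ppm replicate 5 it was 8. It was 10 without 40 ppm replicate 2 and 13 without 120 ppm replicate 4, each with 1 lower call. Centring each array on its median gave 7 calls, 6 higher and 1 lower, and a further quantile normalization gave 9, 8 higher and 1 lower, with the lower call in each a probe set of Dpysl2, a cytoskeletal protein.

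By their values at 40 ppm against air, the 11 probe sets fell into 3 classes, of which the first held most. These classes use the 40 ppm mice on both sides, so a low value in that group moves both differences at once. The response was classed as added at 120 ppm for 8 probe sets, which had not passed for 40 ppm against air. This class did not ask for a difference from air at 120 ppm. Serpina10, 1 of the 8, had none that passed (0.23, limma adjusted p = 0.0918). The response was extended for 1, Serpina3n, which was already higher than air at 40 ppm. It was reversed for 2, a probe set of Cpne8 and an unnamed one, which were lower than air at 40 ppm and higher again at 120 ppm.

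**Figure D2:**
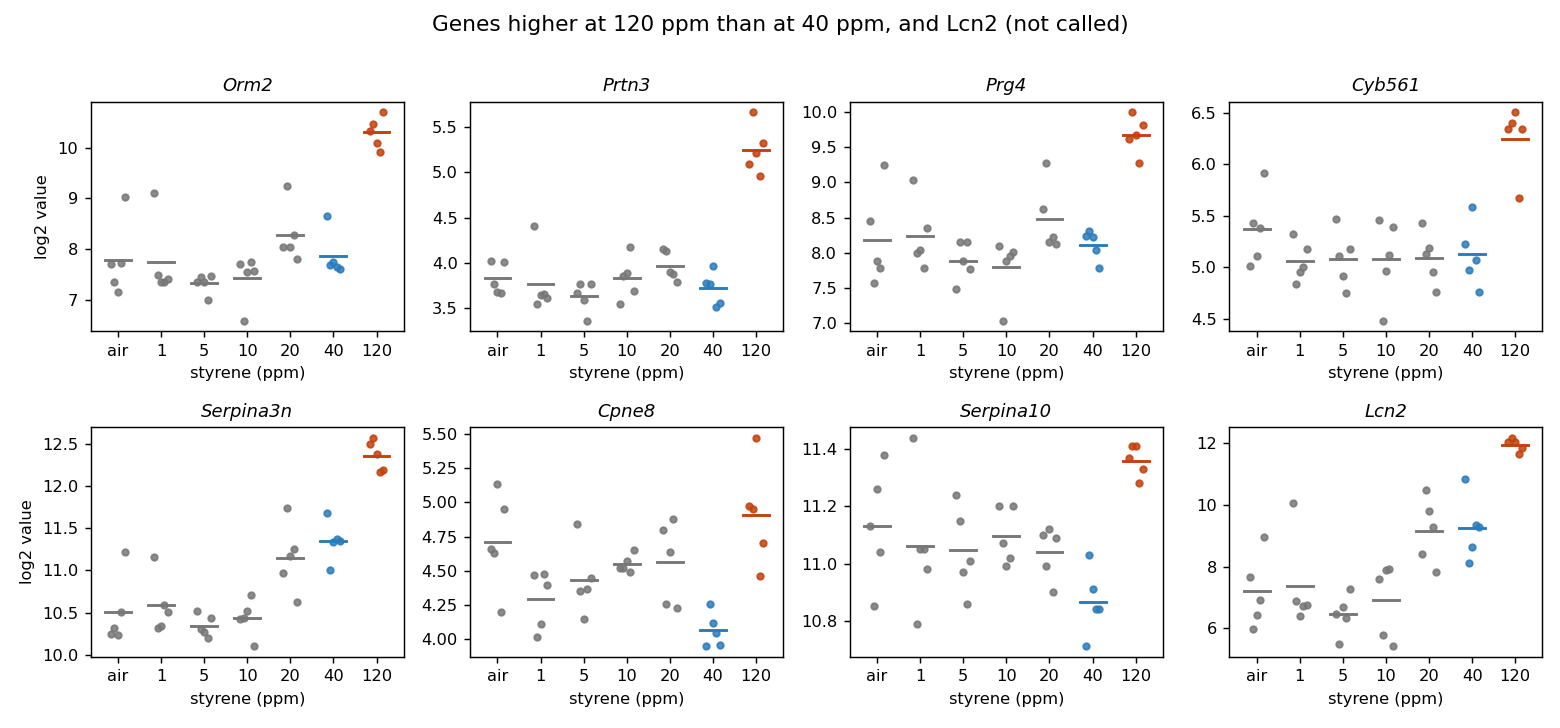
Deposited log2 values of the 7 genes whose brightest probe set passed, and of Lcn2, which did not, with 1 point per mouse and a bar at each group mean, over air and 6 concentrations of styrene in ppm. The 120 ppm mice (orange) lie above all 40 ppm mice (blue) in each panel, while at 40 ppm Serpina3n and Lcn2 were higher and Cpne8 was lower than air.

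Among the genes of the acute phase list that passed, Orm2 and Serpina3n had the largest rises. Their promoters and that of Prtn3, which had the smallest p, are shown as those of called genes, and those of Orm3 and Lcn2 for comparison as an orosomucoid relative and the largest difference of the acute phase list, neither of which passed. Each is the 250 bases before the transcription start site in RefSeq's GRCm38.p6 annotation, read 5′ to 3′ on the strand of the gene. Capitals mark a match to the C/EBP-type motif TTGCNNAA, searched on both strands. A STAT-type motif, TTCNNNGAA, which is its own reverse complement, was searched as well and is in none of these 5. The positions are chr4:63362199-63362448 on the plus strand for Orm2, chr4:63355908-63356157 plus for Orm3, chr12:104406458-104406707 plus for Serpina3n, chr2:32387740-32387989 minus for Lcn2 and chr10:79879417-79879666 plus for Prtn3.
Orm2: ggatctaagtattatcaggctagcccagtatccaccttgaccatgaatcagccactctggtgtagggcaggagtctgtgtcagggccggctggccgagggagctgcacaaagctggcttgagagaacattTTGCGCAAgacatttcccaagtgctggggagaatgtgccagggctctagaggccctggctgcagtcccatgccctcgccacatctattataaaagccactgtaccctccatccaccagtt
Orm3: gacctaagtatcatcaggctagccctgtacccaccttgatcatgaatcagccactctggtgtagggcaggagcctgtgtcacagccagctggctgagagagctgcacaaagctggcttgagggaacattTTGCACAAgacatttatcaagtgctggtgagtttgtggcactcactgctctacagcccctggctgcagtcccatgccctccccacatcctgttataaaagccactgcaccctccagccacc
Serpina3n: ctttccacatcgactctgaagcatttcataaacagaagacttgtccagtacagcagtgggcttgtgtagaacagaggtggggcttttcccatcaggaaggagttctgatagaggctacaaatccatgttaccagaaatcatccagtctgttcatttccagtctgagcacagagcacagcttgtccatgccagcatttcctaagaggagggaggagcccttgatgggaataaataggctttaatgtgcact
Lcn2: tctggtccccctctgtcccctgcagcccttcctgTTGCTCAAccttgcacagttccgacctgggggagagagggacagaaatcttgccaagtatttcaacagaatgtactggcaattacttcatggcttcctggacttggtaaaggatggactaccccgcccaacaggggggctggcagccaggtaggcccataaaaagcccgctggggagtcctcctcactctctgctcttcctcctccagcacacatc
Prtn3: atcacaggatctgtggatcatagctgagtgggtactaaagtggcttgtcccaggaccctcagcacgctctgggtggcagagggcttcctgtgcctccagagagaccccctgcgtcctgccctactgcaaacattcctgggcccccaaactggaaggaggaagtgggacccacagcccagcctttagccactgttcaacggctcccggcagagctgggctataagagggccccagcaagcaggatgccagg

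The C/EBP-type match lies at position -120 from the start site in Orm2, -121 in Orm3 and -216 in Lcn2, and no match was found in the windows of Serpina3n and Prtn3. The Orm2 and Orm3 windows share 218 of 255 aligned columns, or 85.5%, with the match in the same place. Of all 32851 RefSeq promoters of this length, 9.56% hold the C/EBP-type and 7.02% the STAT-type motif. The 22 acute phase genes with a promoter here had 25 of them, and 12 (48%) held the C/EBP-type and 6 (24%) the STAT-type motif. These are matches of letters and not measured sites.

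Orm2 (probe set 1420438_PM_at) encodes an orosomucoid, a plasma glycoprotein that binds drugs and lipids. Its log2 values were 8.66, 7.69, 7.75, 7.66 and 7.62 in the 40 ppm mice and 10.32, 10.46, 10.09, 9.92 and 10.70 in the 120 ppm mice. The groups were far apart, and replicate 1 of the 40 ppm group stood above its own group without reaching the other. The rise of Orm2 was 2.42 ± 0.31 in log2 units (SE of the fit), or 5.36-fold (limma adjusted p = 0.000112). In air it averaged 7.80 ± 0.72 (SD, n = 5), close to the 7.88 ± 0.44 of 40 ppm, so that the whole of its difference from air, 2.50 (adjusted p = 5.31e-06), was found at 120 ppm. Its call held in 19 of 19 alternatives, with values of 2.32 to 2.62.

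Serpina3n (1419100_PM_at), a secreted inhibitor of serine proteases, was the only call already higher than air at 40 ppm. Its values were 11.68, 11, 11.34, 11.37 and 11.35 at 40 ppm and 12.50, 12.57, 12.38, 12.16 and 12.19 at 120 ppm. The groups did not overlap, and the 40 ppm mean of 11.35 was itself above the air mean of 10.50 ± 0.41 (SD, n = 5). It rose 2.02-fold from 40 to 120 ppm, by 1.01 ± 0.18 (adjusted p = 0.0153), after a difference of 0.84 between air and 40 ppm (adjusted p = 0.00174). The call ended without any 1 of 40 ppm replicates 2, 3, 4 and 5 or 120 ppm replicates 1, 2 and 3, with adjusted p between 0.0513 and 0.0939 and values of 0.93 to 1.02.

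Serpina10 (1424758_PM_s_at) encodes the protein Z-dependent inhibitor of coagulation factor X, made by hepatocytes. It had 10.71, 11.03, 10.91, 10.84 and 10.84 at 40 ppm and 11.37, 11.41, 11.41, 11.28 and 11.33 at 120 ppm. The air mean of 11.13 ± 0.20 lay between the groups, and neither differed from air (adjusted p = 0.0569 at 40 ppm and 0.0918 at 120 ppm). The rise from 40 to 120 ppm was 0.50 ± 0.10, or 1.41-fold (adjusted p = 0.0489), a size that the hybridisation controls came close to, and the part of that shift in the result was not tested. It passed in 6 of 19 alternatives. The call ended after centring (adjusted p = 0.0925) and with the spread of the 10 arrays alone (adjusted p = 0.0602). It also ended for each array left out except 40 ppm replicate 2, with adjusted p up to 0.172.

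The acute phase list as a whole was higher at 120 ppm, although most members did not pass. Of 29 genes 27 were measured, and 3 rose, namely Orm2, Serpina3n and Serpina10, against 0.0409% of all 17097 genes called. At an unadjusted p under 0.05 in limma, 17 of 27 (63%) were higher, against 3.14% of all genes, and none was lower, against 1.98%. In 16 of 27 the 120 ppm mice lay entirely above the 40 ppm mice, against 0.784% of all genes, and in none were they entirely below, against 0.766%. The median change was 0.27, where that of all genes was 0.00, and 24 of the 27 had a positive difference. The list was chosen with earlier results of these data known, so its direction is not independent evidence. Over the alternatives, 15 to 18 members were higher at an unadjusted p under 0.05 with a median of 0.25 to 0.28.

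**Figure D3:**
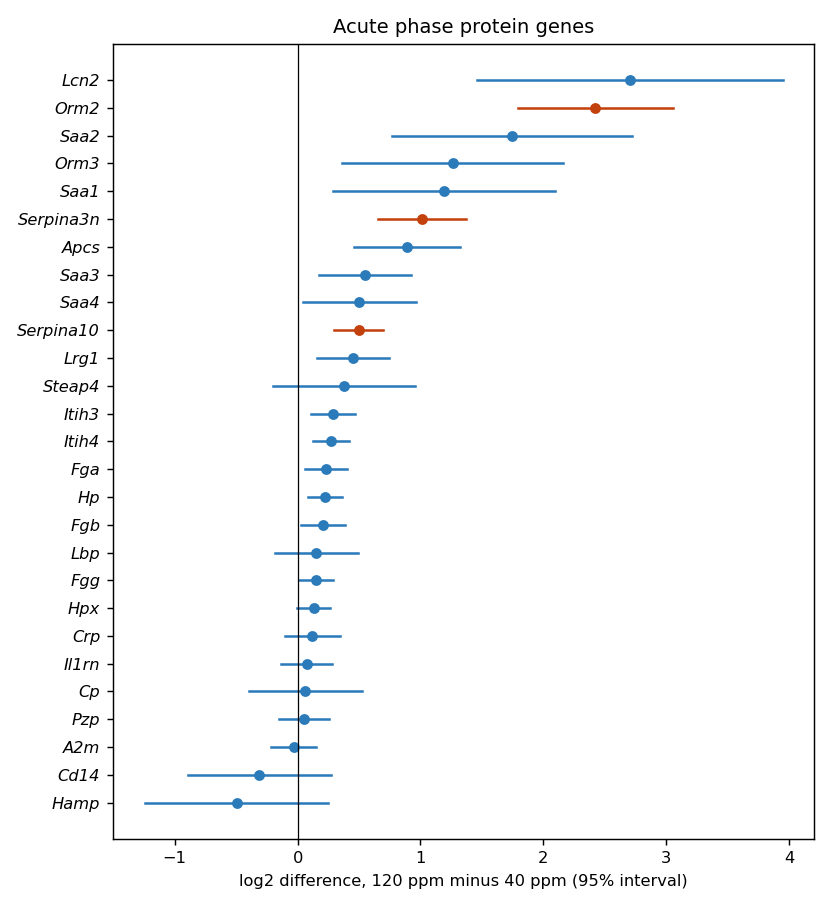
Log2 difference of 120 ppm minus 40 ppm for the 27 measured acute phase genes, with bars for the 95% interval of limma, ordered by size. Orange marks the 3 that passed, and the intervals of 17 genes lie entirely above 0 and none entirely below.

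The values of the other acute phase genes were named after they were seen, and those described in detail were all higher in the mean. Some other members were lower in the mean or differed little. Hamp differed by -0.50 (limma unadjusted p = 0.185), Cd14 by -0.31 (unadjusted p = 0.286) and A2m by -0.03, each with overlapping groups. Lbp, Crp, Il1rn, Cp and Pzp differed by only 0.15, 0.12, 0.08, 0.06 and 0.05, also with overlap. Steap4 differed by 0.38 with overlap and Hpx by 0.13 with none, and neither passed. Lcn2, lipocalin 2, which binds bacterial iron carriers, had the largest difference of the list. Its values were 10.82, 8.10, 8.63, 9.34 and 9.28 at 40 ppm and 12.02, 12.16, 12.03, 11.65 and 11.82 at 120 ppm, and the groups did not overlap. The SD was 1.02 at 40 ppm and 1.17 in air but 0.20 at 120 ppm. The difference was 2.70 ± 0.61, or 6.50-fold, and did not pass (adjusted p = 0.162). When the spread was taken from the 10 arrays alone it did (adjusted p = 0.0166).

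Among the serum amyloid transcripts, whose proteins travel on high-density lipoprotein, Saa1 and Saa2 were scattered at 40 ppm and tight at 120 ppm. Saa2 (1419075_PM_s_at) had 12.59, 11.04, 10.72, 12.01 and 11.69 at 40 ppm against 13.30, 13.40, 13.30, 13.32 and 13.43 at 120 ppm. The difference of 1.74 ± 0.48 did not pass (adjusted p = 0.394), but did with the spread of the 10 arrays alone (adjusted p = 0.0444). Saa1 had 12.15 ± 0.59 (SD, n = 5) and 13.34 ± 0.10, a difference of 1.19 ± 0.44, with no overlap (adjusted p = 0.744). Saa4, the constitutive member, had a difference of 0.50 with an SD of 0.18 at 40 ppm and 0.14 at 120 ppm, and Saa3 one of 0.55 with overlapping groups and the wider SD at 120 ppm (0.15 and 0.49). The highest Saa values came within 1 log2 unit of the highest value in the table, 14.23, and whether a ceiling of the array narrowed them was not tested. Saa and Orm genes are close relatives that probes can read together.

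Apcs, serum amyloid P, a pentraxin, had 10.78, 10.58, 10.49, 11.30 and 10.95 at 40 ppm and 11.62, 11.71, 11.80, 11.70 and 11.73 at 120 ppm. The groups lay apart by 0.89 ± 0.21, which did not pass (adjusted p = 0.218) except with the spread of the 10 arrays alone (adjusted p = 0.0393). Orm3 had a difference of 1.26 ± 0.44 (adjusted p = 0.703), and 120 ppm replicate 4, at 6.38, lay among the 40 ppm mice while the other 4 were between 7.72 and 8.22.

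Abundant acute phase transcripts showed small differences with no overlap. Hp, haptoglobin, which binds free haemoglobin, had 13.21 ± 0.05 at 40 ppm and 13.43 ± 0.05 at 120 ppm, and Itih4, an inter-alpha-trypsin inhibitor heavy chain, had 12.57 ± 0.03 and 12.84 ± 0.02 (SD, n = 5). The differences were 0.22 (adjusted p = 0.53) and 0.27 (adjusted p = 0.339). Itih3, another such chain, had 0.29, Lrg1, a leucine-rich glycoprotein, 0.45, and the 3 fibrinogen chains Fga, Fgb and Fgg had 0.23, 0.21 and 0.15. None of these passed, and their sizes lay within the 0.109 to 0.489 by which the hybridisation controls differed. The part of that shift in them was not tested. The highest Hp values, up to 13.48, came within 1 log2 unit of the highest value in the table, 14.23. Whether a ceiling of the array narrowed the Hp difference was not tested.

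Transcripts of the signalling pathway that acts on these genes were not called. Of 22 measured genes of interleukin-6 and STAT3 signalling none passed, 2 (9.09%) were higher at an unadjusted p under 0.05, against 3.14% of all genes, and the median change was 0.03. The 2 were Fgl1, a fibrinogen-like protein of hepatocytes that is itself a target, at 0.69 (adjusted p = 0.782, and adjusted p = 0.00847 with the spread of the 10 arrays alone), and Socs1, a feedback inhibitor. Stat3 differed by 0.08 (95% interval -0.29 to 0.45) and Socs3, another feedback inhibitor, by 0.16 (-0.55 to 0.87). Il6 itself was low in every group, at 2.61 at 40 ppm and 2.53 at 120 ppm. Of 31 genes of complement and coagulation none was called, and the median was 0.05. The coagulation inhibitor Serpina10, which passed, was counted in the acute phase list and not in this one.

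Prtn3 (1419669_PM_at), proteinase 3 of neutrophil granules, had the smallest p of all. Its values were 3.78, 3.77, 3.97, 3.51 and 3.55 at 40 ppm and 5.09, 5.67, 5.22, 4.96 and 5.33 at 120 ppm. All 120 ppm mice were above every mouse of the 40 ppm group, and the air mean was 3.83 ± 0.17 (SD, n = 5). It rose 2.91-fold, by 1.54 ± 0.14 (adjusted p = 8.07e-08), with 40 ppm not different from air (-0.11, adjusted p = 0.633). The call held in 19 of 19 alternatives, between 1.44 and 1.61.

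The other neutrophil granule genes were not called. Of 18 measured members it was the only call, and the median of the list was 0.00. Without it, the summed linear level of the other 17 was 163 to 175 at 40 ppm and 162 to 175 at 120 ppm. With it, the ranges were 174 to 189 and 197 to 226. Elane, neutrophil elastase, had 3.35 ± 0.20 and 3.30 ± 0.25 (SD, n = 5), Mpo, myeloperoxidase, had 3.57 in both groups, and Ctsg, cathepsin G, had 3.26 and 3.19. Ltf, S100a8 and S100a9 differed by 0.11, -0.10 and 0.20 and did not pass. Of the 17, 16 had a 120 ppm mean below 4, near the low end of the table, where changes can be understated. In whole liver, fewer cells of a type and less RNA per cell cannot be told apart.

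Prg4 (1449824_PM_at), lubricin, a mucin-like glycoprotein best known from joint surfaces, had 8.24, 8.31, 8.22, 8.04 and 7.78 at 40 ppm and 9.62, 10.00, 9.67, 9.28 and 9.82 at 120 ppm. The groups did not overlap, and all 40 ppm mice lay close together. It rose 2.94-fold, by 1.56 ± 0.26 (adjusted p = 0.00777), from a 40 ppm mean equal to air within the spread (-0.07, adjusted p = 0.89). The call ended without 40 ppm replicate 5 (1.47, adjusted p = 0.0547) and without 120 ppm replicate 2 (1.48, adjusted p = 0.0576).

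Cyb561 (1417507_PM_at), a cytochrome that carries electrons from ascorbate across vesicle membranes, had 5.23, 4.97, 5.59, 5.07 and 4.76 at 40 ppm and 6.34, 6.40, 6.51, 5.67 and 6.34 at 120 ppm. Replicate 4 of the 120 ppm group was close to the highest 40 ppm mouse and the other 4 were well above it. It rose 2.19-fold, by 1.13 ± 0.18 (adjusted p = 0.00777), and also differed from air (0.89, adjusted p = 0.00125). The call ended without 40 ppm replicate 5 (adjusted p = 0.0547) or 120 ppm replicate 2 (0.0576) or replicate 3 (0.0538).

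Cpne8, a calcium-dependent membrane-binding protein, was the named gene among the reversals. Probe set 1430520_PM_at had 3.95, 4.26, 4.12, 4.05 and 3.96 at 40 ppm and 4.97, 4.95, 5.47, 4.46 and 4.70 at 120 ppm. The 40 ppm mice were also below the air mean of 4.71 ± 0.35 (-0.65, adjusted p = 0.00639), and the 120 ppm mean of 4.91 did not differ from air (0.20, adjusted p = 0.404). At 1, 5, 10 and 20 ppm the means were 4.30, 4.43, 4.55 and 4.56, all below air. The 1 ppm mice, at 4.02 to 4.48, overlapped the 40 ppm mice. The rise from 40 to 120 ppm was 0.84 ± 0.16, or 1.79-fold (adjusted p = 0.0398). A further probe set of the gene, 1430521_PM_s_at, gave 0.83 (adjusted p = 0.0398), but its 40 ppm value did not pass against air (-0.31, adjusted p = 0.19). The call of the first held in 8 of 19 alternatives. It ended with centring (adjusted p = 0.0801), with quantile normalization (0.135) and with the spread of the 10 arrays alone (0.129). It also ended without any 1 of 40 ppm replicates 1, 3, 4 and 5 or 120 ppm replicates 1, 2 and 3 (up to 0.165).

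The unnamed probe set 1415977_PM_at followed the same course, with 4.93 ± 0.16 (SD, n = 5) at 40 ppm and 5.93 ± 0.26 at 120 ppm. It rose by 1.00 ± 0.19 (adjusted p = 0.0489) after -0.61 against air at 40 ppm (adjusted p = 0.0306). The other unnamed one, 1458781_PM_at, had 2.70 ± 0.24 and 3.31 ± 0.11 and rose by 0.60 (adjusted p = 0.0144). Ctsf, cathepsin F, was read by probe sets that disagree. Its 1449794_PM_x_at rose by 0.45 ± 0.09 from 2.56 (adjusted p = 0.0398), a size within the shift of the hybridisation controls. The brighter 1451019_PM_at, which stands for the gene here, had 8.28 ± 0.12 and 8.03 ± 0.11 and did not pass (-0.25, adjusted p = 0.86).

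Slc3a1, the heavy subunit of a cystine transporter, was named after its values were seen as another gene that was lower than air at 40 ppm (-0.62, adjusted p = 0.0307). It had 7.48, 7.47, 7.85, 7.92 and 7.78 at 40 ppm and 8.99, 8.67, 8.43, 8.52 and 8.66 at 120 ppm, against 8.32 ± 0.36 in air. The groups did not overlap, but the difference of 0.95 ± 0.20 did not pass (adjusted p = 0.102) except with the spread of the 10 arrays alone (adjusted p = 0.0122).

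No gene was called lower at 120 ppm. By smallest p among the brighter probe sets the nearest were Dnase2a, a lysosomal DNase, Gt(ROSA)26Sor, a noncoding transcript, Acaa1b, a peroxisomal thiolase, Ttc27, a tetratricopeptide protein, and Acot1, a cytosolic acyl-CoA thioesterase. Dnase2a had 8.95, 8.96, 9.04, 9.50 and 9.24 at 40 ppm and 8.29, 7.53, 7.39, 9.17 and 6.83 at 120 ppm, where replicate 4 lay inside the 40 ppm range. Its difference was -1.30 ± 0.31 (adjusted p = 0.226), and without that mouse it was -1.63 and passed (adjusted p = 0.0175). Gt(ROSA)26Sor had -0.57 (adjusted p = 0.3) and Ttc27 -0.38 (adjusted p = 0.339), each with no overlap of the groups.

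Acot1 had 8.23, 8.72, 8.47, 8.78 and 8.39 at 40 ppm and 6.74, 7.20, 7.36, 7.68 and 6.23 at 120 ppm. The groups did not overlap, and the air mean of 7.75 ± 0.71 lay between them. The difference of -1.48 ± 0.40 did not pass (adjusted p = 0.369) except with the spread of the 10 arrays alone (adjusted p = 0.0393). Its close relatives Acot2, in mitochondria, and Acot3, in peroxisomes, which probes can read together with it, were also lower at 120 ppm in the mean. Acot2 differed by -1.21 ± 0.38 with no overlap (adjusted p = 0.566). Acot3 had 10.01, 8.84, 9.49, 9.74 and 9.61 at 40 ppm and 8.68, 9.05, 9.04, 8.60 and 6.61 at 120 ppm, far above its 4.33 ± 0.17 in air in both groups. Its difference of -1.14 (adjusted p = 0.963) was -0.69 without 120 ppm replicate 5.

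The Acot genes and Acaa1b belong to the targets of PPARA, the nuclear receptor that drives fatty acid oxidation in hepatocytes. Of 24 measured targets none passed, 6 (25%) were lower at an unadjusted p under 0.05, against 1.98% of all genes, and none was higher. The median change was -0.17, and 23 of the 24 were negative. The 6 were Acot1, Acot2, Acaa1b at -0.52 ± 0.13, Ehhadh, the peroxisomal bifunctional enzyme, at -0.47 ± 0.16, Pex11a, a peroxisome division protein, at -0.40 ± 0.16, and Plin2, a lipid droplet protein, at -0.23 ± 0.11. Cpt1a, the gatekeeper of mitochondrial fatty acid import, had 11.43 ± 0.11 and 11.26 ± 0.19, both above the air mean of 10.44. The median against air was 0.49 at 40 ppm and 0.22 at 120 ppm, in comparisons that share the air mice. Over the alternatives the number lower was 4 to 8.

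Genes of styrene metabolism showed no call and small differences. None of the 13 measured passed, and their median was -0.06. Cyp2e1, the main hepatic styrene oxidase, had 13.55 ± 0.03 at 40 ppm and 13.54 ± 0.02 at 120 ppm, a difference of -0.01 (95% interval -0.12 to 0.10), with both means above the air mean of 13.33. Cyp2f2, the oxidase best known from lung, had 12.78, 12.92, 12.94, 12.87 and 12.90 against 12.58, 12.74, 12.70, 12.73 and 12.75. All 120 ppm mice lay below the 40 ppm mice, by -0.18 ± 0.06 in the mean, which did not pass (adjusted p = 0.655).

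The epoxide hydrolases Ephx1, which opens styrene oxide, and Ephx2, which prefers lipid epoxides, differed by -0.31 ± 0.14 (adjusted p = 0.843) and -0.16 ± 0.08 (adjusted p = 0.896). With Cyp2f2 these were the 3 members (23.1%) lower at an unadjusted p under 0.05, against 1.98% of all genes. The glutathione transferases Gstm1, Gstp1, Gstt1 and Mgst1 differed by -0.01, -0.06, -0.20 and 0.05. Gstt1 was the only one of the 4 with no overlap between the groups. The alcohol and aldehyde dehydrogenases, which act on later products, ranged from -0.15 for Aldh3a2 to 0.30 for Adh4, with Adh1 at 0.01, Aldh1a1 at -0.04 and Aldh2 at -0.06. The highest Cyp2e1, Gstp1, Mgst1 and Adh1 values also came within 1 log2 unit of the highest value in the table, 14.23. Whether a ceiling of the array narrowed their differences was not tested.

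Among the circadian and cold-inducible transcripts, many of which differed widely from air, none was called between 40 and 120 ppm. The PER arm of the clock, genes that peak from afternoon to evening in mouse liver, had a median of 1.34 for 40 ppm against air and 1.40 for 120 ppm against air. Between 120 and 40 ppm its 12 members had a median of 0.03, with none at an unadjusted p under 0.05 in either direction. Per3, a period gene, had 6.82, 5.99, 6.12, 5.93 and 6.39 at 40 ppm and 5.16, 5.43, 6.67, 6.23 and 6.21 at 120 ppm, with overlapping groups (-0.31, 95% interval -1.10 to 0.48). Per1 differed by -0.13 (-0.73 to 0.46), Ciart, a clock repressor, by 0.11 (-0.61 to 0.83) and Usp2, a rhythmic deubiquitinase, by 0.35 (-0.27 to 0.97). Dbp, an output transcription factor, differed by 0.13, with an interval of -1.76 to 2.01 that leaves changes of over 2-fold either way within its width. This interval rests on the spread of all 7 groups. The SD of Dbp was 2.19 in air but 0.53 at 40 ppm and 0.83 at 120 ppm.

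The BMAL1 arm, in antiphase to it, had medians of -0.94 and -1.09 against air and 0.01 between the concentrations over 5 genes. Arntl, which encodes BMAL1, had 5.51 ± 0.38 and 5.52 ± 0.49 (SD, n = 5), and its partner Npas2 differed by 0.14 (95% interval -0.55 to 0.84). Of the cold-inducible RNA-binding proteins, Cirbp had 6.75, 5.80, 7.02, 6.85 and 6.36 at 40 ppm and 7.41, 6.27, 6.33, 6.30 and 6.27 at 120 ppm, with 1 high mouse in the second group and a difference of -0.04. Rbm3 differed by -0.03 (95% interval -0.47 to 0.40).

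**Figure D4:**
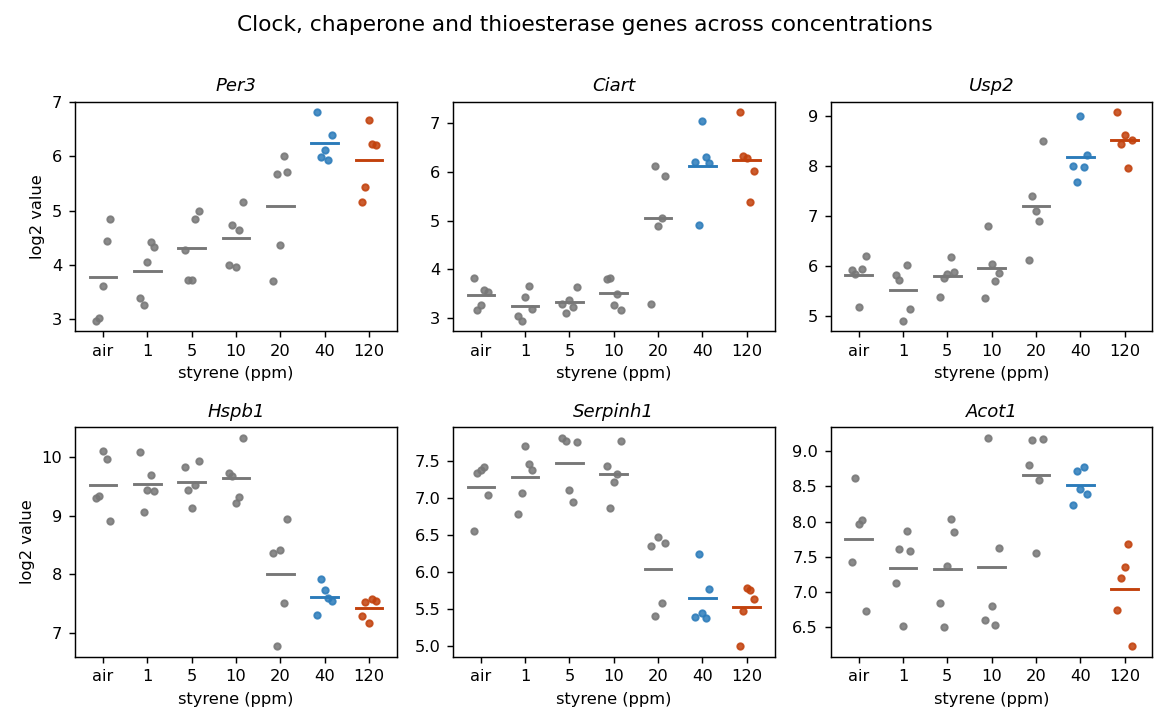
Deposited log2 values of 3 clock genes, 2 chaperone genes and Acot1, with 1 point per mouse and a bar at each group mean, over air and 6 concentrations in ppm. For the first 5 the 40 ppm (blue) and 120 ppm (orange) mice overlap, while for Acot1 all 120 ppm mice lie below all 40 ppm mice.

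The chaperones that were far below air at 40 ppm were not called between the concentrations. Hspb1, a small heat shock protein, had 7.62 ± 0.23 and 7.42 ± 0.18 against 9.52 in air, and Serpinh1, the collagen chaperone, had 5.65 ± 0.37 and 5.53 ± 0.32 against 7.14 (SD, n = 5). Hspa1b, an inducible HSP70, had 7.80, 9.52, 7.38, 7.61 and 7.09 at 40 ppm and 6.91, 7.33, 7.24, 7.63 and 6.92 at 120 ppm, a difference of -0.67 ± 0.62 with 40 ppm replicate 2 far above the other 4 mice. Of 16 cytosolic and mitochondrial heat shock genes 15 were lower in the mean at 120 ppm, with a median of -0.26, and 3 (18.8%) were lower at an unadjusted p under 0.05, against 1.98% of all genes. These were Hspa8, the constitutive HSP70, at -0.33, and the HSP90 co-chaperones Stip1 at -0.38 and Ahsa1 at -0.28, none of which passed. Without 40 ppm replicate 2, which was the highest of its group for each, the median of the list was -0.12 and 2 were lower.

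The same mouse stood apart in genes of the endoplasmic reticulum. Creld2, an unfolded-protein response gene, had 8.65, 11.49, 8.85, 9.01 and 8.34 at 40 ppm, and Manf, a secreted stress protein, had 10.16, 11.34, 10.10, 10.04 and 9.80. At 120 ppm Creld2 lay between 7.75 and 8.97 and Manf between 9.23 and 10.13. Of 22 measured genes 4 (18.2%) were higher and 5 (22.7%) lower at an unadjusted p under 0.05, against 3.14% and 1.98% of all genes, none passed, and the median was -0.08. Without 40 ppm replicate 2 the counts were 7 and 1 and the median was 0.05, and no other left-out mouse gave a positive median. The counts moved with other mice too, and were 3 higher and 3 lower without 120 ppm replicate 1 (median -0.04).

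Within that list the higher genes included Derl3, a component of protein degradation from the endoplasmic reticulum. It had 6.34, 8.15, 6.97, 6.44 and 6.53 at 40 ppm and 8.18, 8.95, 8.22, 7.71 and 8.44 at 120 ppm, a difference of 1.41 ± 0.37 (adjusted p = 0.339), or 1.73 without 40 ppm replicate 2 (adjusted p = 0.115). Pdia6, a protein disulphide isomerase, had 0.49 ± 0.14 (adjusted p = 0.467), and without that mouse 0.67, which passed (adjusted p = 0.0172). Hyou1, a chaperone of the same compartment, had -0.42 and without that mouse -0.21. Of 30 genes of the secretory machinery, 3 (10%) were higher and 2 (6.67%) lower at an unadjusted p under 0.05, against 3.14% and 1.98% of all genes, with a median of 0.03.

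Of the other genes that stood out against air, Vegfa, the blood vessel growth factor, had 8.07 ± 0.10 and 8.04 ± 0.16 against 7.11 in air, a difference of -0.03 (95% interval -0.22 to 0.15). Atp6v0d2, a proton pump subunit, had 6.56, 6.15, 6.29, 5.61 and 6.63 at 40 ppm and 6.80, 6.65, 6.98, 6.10 and 6.69 at 120 ppm. The groups overlapped through 1 mouse of the second, and the difference of 0.40 ± 0.19 did not pass (adjusted p = 0.88).

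Markers of other liver cells were level or slightly lower at 120 ppm, and none passed apart from Prtn3. Of 13 markers of stellate cells and fibroblasts 12 were lower in the mean, with a median of -0.22, and 6 (46.2%) were lower at an unadjusted p under 0.05, against 1.98% of all genes, among them Ecm1 at -0.30, Colec11 at -0.34 and the growth factor receptor Pdgfrb at -0.26. Their summed linear level was 2120 to 2450 at 40 ppm and 1630 to 2200 at 120 ppm. Over the alternatives 2 to 7 members were lower. Of 12 Kupffer cell markers 11 were lower in the mean with a median of -0.11, and none reached an unadjusted p under 0.05. Clec4f, their surface lectin, differed by -0.17 ± 0.14. The medians for monocyte, sinusoidal endothelial and hepatocyte markers were 0.04, -0.09 and -0.04.

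**Figure D5:**
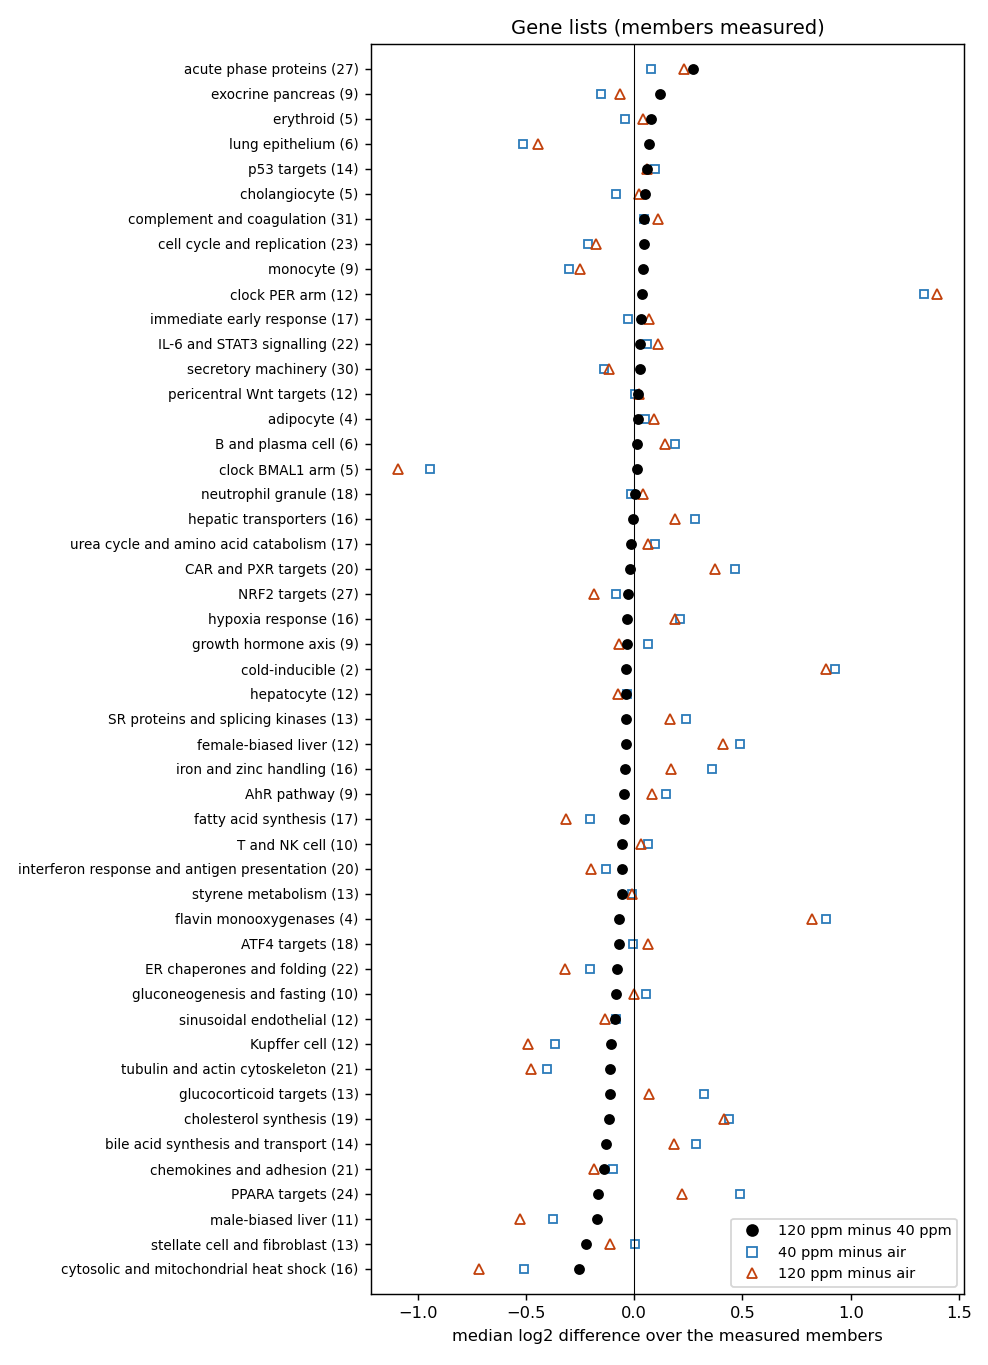
Median log2 difference over the measured members of 49 gene lists, for 120 ppm minus 40 ppm (black circles), 40 ppm minus air (blue squares) and 120 ppm minus air (orange triangles), with the number of members in brackets. The comparisons share mice, the black circles lie between -0.26 and 0.27 with the acute phase list at the top, and the largest distances from 0 belong to the comparisons with air.

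Across all 49 lists, with 680 measured genes, 47 had no call between 120 and 40 ppm. The median change lay within 0.1 of 0 on the log2 scale for 37 lists and within 0.2 for 46. Lists for CAR and PXR targets, hypoxia, the cell cycle and immediate early genes had medians of -0.02, -0.03, 0.05 and 0.03, with no member at an unadjusted p under 0.05.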

How the data were processed

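Values for 35 arrays came as a deposited matrix of probe sets. RMA and Partek are listed, per the submitters' processing notes, without versions or what each was used for. The authors' deposited values were read as log2 from their range, 1.74 to 14.23, since no source used here states the base, and each fold rests on that. No normalization was added, so probe sets near the low end are bounded by noise, and the number of arrays limits precision. Of 45141 probe sets, 104 controls were left out. The platform annotation gave a single symbol to 28898, for 17097 genes, while 551 had several symbols and 15588 had none here. A gene was read from its sole-named probe set of highest mean.

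limma 3.58.1 in R 4.3.3, with data.table (version 1.17.8), fitted 7 group means to all arrays, with 28 residual and 5.41 prior degrees of freedom. P-values were adjusted by Benjamini-Hochberg over 45037 probe sets, and a call is an adjusted p under 0.05. They measure the spread between mice labelled as biological replicates. Array measures were compared by two-sided exact permutation over 252 divisions, whose smallest p is 0.00794. Python 3.11.15, Biopython 1.88 and matplotlib 3.10.9 served for promoters and figures. Scripts were tested on simulated data.

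The rule for naming took up to 15 largest rises and falls among genes that passed, up to 4 passing members of each list, the largest of each class, all members of the styrene metabolism and cold-inducible lists, 11 genes that stood out against air, and, where fewer than 5 passed in a direction, the 5 smallest p among brighter probe sets. Genes outside it, Lcn2, Acot2, Acot3, Ctsf, Slc3a1, Dpysl2 and the members of lists that did not pass included, were named after their values were seen. Members and lists were chosen with earlier results of these data known. The alternatives were centring, quantile normalization, brighter probe sets only, the 10 arrays alone, a trended robust prior, array weights, the mean of a gene's probe sets (named genes only), a replicate block, the title number as a covariate and each array left out. An acute phase list without Serpina10 was added after seeing the data.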

Additional observations from a re-analysis of the deposited data

Results flagged for a closer look

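Dixon's criterion was applied to 174 groups of 5 mice, covering 87 genes at 40 and 120 ppm, and 14 single values lay beyond its critical value of 0.71. Chance flags about 1 in 20 groups.

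At 40 ppm, replicate 2 was flagged for 6 genes. Its values were 10.41 for Pdia6 against 9.30 to 9.61 in the other mice, 11.34 for Manf against 9.80 to 10.16, and 11.49 for Creld2 against 8.34 to 9.01, all genes of the endoplasmic reticulum. They were 8.36 for Stip1 against 7.65 to 7.79 and 9.17 for Ahsa1 against 8.66 to 8.75, both HSP90 co-chaperones, and 12.47 for Aldh2 against 12.57 to 12.61. Replicate 1 at 40 ppm had 8.66 for Orm2 against 7.62 to 7.75.

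At 120 ppm, replicate 4 had 5.67 for Cyb561 against 6.34 to 6.51, 6.38 for Orm3 against 7.72 to 8.22, and 5.12 for Ttc27 against 5.25 to 5.30. Replicate 5 had 6.61 for Acot3 against 8.60 to 9.05 and 12.68 for Aldh1a1 against 12.76 to 12.77. Replicate 2 had 5.80 for Gt(ROSA)26Sor against 6.26 to 6.39, and replicate 1 had 7.41 for Cirbp against 6.27 to 6.33.

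The bacterial hybridisation controls, which enter no comparison of liver transcripts, were higher at 120 ppm than at 40 ppm by a median of 0.369 on the log2 scale over 18 probe sets. Their mean per array lay between 9.442 and 9.937 at 40 ppm, between 9.731 and 10.29 at 120 ppm and between 9.53 and 9.864 in air.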

How the results depend on the processing

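The 11 calls became 7 with arrays centred on their median, 17 with array weights and 7 with the replicate block. Lower calls, 0 in the reported fit, were 1 with centring, 1 with quantile normalization, 2 with the 10 arrays alone (Acot1 and Acot2) and 1 with array weights. Calls of at least 1.5-fold, 9 as reported, were 5 with centring and 14 with the 10 arrays alone. The 8 added calls were 5 with centring and 5 among brighter probe sets, the 1 extended call was 2 with array weights, and the 2 reversed calls were 1 with centring, 6 with array weights, 0 with the replicate block and 1 with the title number as covariate. Leaving out each array in turn gave 2 to 13 calls, 0 to 1 lower, 2 to 11 of at least 1.5-fold, 2 to 10 added, 0 to 1 extended and 0 to 4 reversed. The actin 3' minus 5' difference was 0.01 in means and -0.0133 in medians (adjusted p = 0.714, exact permutation). The cause of these changes was not tested.

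Replicate numbers did not pair the mice. Same-numbered mice had correlations of -0.23 to 0.13, with 1 of 5 pairs over 0.1, and 2 of 5 mice correlated best with their own number. All 7 calls of the replicate block were among the 11, and Serpina10 and 1 of the Cpne8 probe sets, 1430520_PM_at, lost theirs at an adjusted p of 0.0545. The called Ctsf probe set and an unnamed one were lost as well. Of the 19 alternatives, Orm2 and Prtn3 kept their call in 19, Prg4 in 17, Cyb561 in 16, Serpina3n in 12, that Cpne8 probe set in 8 and Serpina10 in 6, with the same direction throughout. Without Serpina10 the acute phase list, an alternative chosen after seeing the data, had 2 calls and 16 members higher at an unadjusted p under 0.05.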
